A study of Mus musculus with 2 samples.

Results

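A set of 10 genes that make, sense and move bile acids was followed in 2 liver libraries of mice that did or did not receive a Cre virus. They were taken as a fixed set of names among the 32285 genes of the files: the synthesis enzymes Cyp7a1, Cyp8b1, Cyp27a1 and Cyp7b1, the conjugating enzyme Baat, the feedback regulators Nr0b2 and Nr1h4, the exporter Abcb11, and the uptake carriers Slc10a1 and Slco1b2. All 10 were found once by symbol. Hepatocytes turn cholesterol into bile acids by a classic route, which Cyp7a1 opens, and an alternative route, which uses Cyp27a1 and Cyp7b1. Bile acids activate the nuclear receptor FXR, encoded by Nr1h4. FXR raises the repressor SHP, encoded by Nr0b2, and the canalicular exporter Abcb11, and SHP is known to restrain Cyp7a1 and Cyp8b1.

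The control library came from the liver of 1 mouse with floxed Glul alleles (Glul f/f) given AAV8-GFP, and the GS_KO library from 1 Glul f/f mouse given AAV8-Cre to delete Glul, which encodes glutamine synthetase. Both mice were 11 weeks old, bore no tumour, and were sampled 2 weeks after the virus. The promoter that drives Cre was not given in the sources used here. Isolated hepatocytes, pooled with non-parenchymal cells after collagenase II digestion, went into a 10x 5-prime library, which the labels call both single-cell and single-nucleus. With 1 mouse per group no test between conditions was possible. Every interval below is a 95% interval for counting error only, and differences between mice, digestions or preparations cannot be told apart from the effect of the virus.

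UMIs of barcodes were summed in 3 size classes. The small class of 200 to under 400 UMIs held 116552 control and 143687 GS_KO barcodes with 38070357 and 43036904 UMIs. The middle class of 500 to under 1000 UMIs held 11989 and 10037 barcodes, and the large class of 1000 or more UMIs held 1703 and 1834 barcodes with 2182260 and 2443469 UMIs. Barcodes of 400 to under 500 UMIs fell between the classes. They numbered 28249 in control and 8772 in GS_KO, with 19.8% and 6.62% of all UMIs of their libraries. Levels are CPM, counts per 1000000 UMIs of the class. In such sums, fewer cells that use a gene and less of its RNA per cell cannot be told apart. Whether small barcodes were cells, nuclei or free RNA was not tested, so the classes are not read as separate cell populations. Glul, the targeted gene, stood at 113, 118 and 124 CPM in the small, middle and large control classes, and at 9.78, 27.8 and 31.5 CPM in the GS_KO classes. All 10 hepatocyte markers were detected in every class. Their sum was 52634 CPM in the large control class and 39926 CPM in the large GS_KO class, where 4 of them were higher and 6 lower than in control. The nuclear transcript Malat1 was at 1709 and 1365 CPM in small, 7812 and 17706 CPM in middle and 19613 and 37630 CPM in large barcodes. Between the small and middle classes it was at 2212 and 6075 CPM. Equal UMI limits therefore did not mark equal Malat1 content in the 2 libraries. The mitochondrial share was 9.32% and 8.38% in small against 3.64% and 2.41% in large barcodes. The libraries shared 8108 barcode sequences, of which 1 was large in both.

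The promoters that bear on the comparison are shown first, because Nr0b2 and Abcb11 had the highest ratios of GS_KO over control in middle and large barcodes (in small ones, Nr0b2 and Cyp8b1 had), Cyp8b1 stood opposite to Cyp7a1, and Slco1b2 shares a motif with Abcb11. Each line holds the 250 bases before the RefSeq start of the gene on its own strand (GRCm38.p6), 5′ to 3′, with motif matches in capitals. RefSeq windows were matched for 7 of the 10 members, leaving Cyp7a1, Cyp7b1 and Baat without one. The search covered both strands for GGNCA and TGNCC set 1 base apart (the inverted repeat that FXR is known to bind), TCAAGG (the core of the site of Nr5a2, also called LRH-1), CAAAGTCCA (a site of HNF4), CACGTG (the E-box of clock factors) and TTATGTAA (the D-box of Dbp). No matches overlapped.
Abcb11, chr2:69342617-69342866, minus strand: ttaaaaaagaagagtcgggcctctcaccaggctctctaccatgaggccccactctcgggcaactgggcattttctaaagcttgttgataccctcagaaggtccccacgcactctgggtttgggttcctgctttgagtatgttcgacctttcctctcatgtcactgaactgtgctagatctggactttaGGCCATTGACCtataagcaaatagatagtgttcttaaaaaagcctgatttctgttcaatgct
Slco1b2, chr6:141629268-141629517, plus strand: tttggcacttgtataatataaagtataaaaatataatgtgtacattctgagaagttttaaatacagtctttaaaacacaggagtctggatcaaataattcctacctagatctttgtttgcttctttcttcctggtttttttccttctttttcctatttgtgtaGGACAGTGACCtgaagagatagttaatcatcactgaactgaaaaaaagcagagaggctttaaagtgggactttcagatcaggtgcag
Nr0b2, chr4:133553126-133553375, plus strand: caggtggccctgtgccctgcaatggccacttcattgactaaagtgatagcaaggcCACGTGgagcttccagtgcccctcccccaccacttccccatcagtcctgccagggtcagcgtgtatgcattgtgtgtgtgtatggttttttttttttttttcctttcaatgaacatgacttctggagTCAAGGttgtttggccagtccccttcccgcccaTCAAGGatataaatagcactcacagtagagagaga
Cyp8b1, chr9:121916306-121916555, minus strand: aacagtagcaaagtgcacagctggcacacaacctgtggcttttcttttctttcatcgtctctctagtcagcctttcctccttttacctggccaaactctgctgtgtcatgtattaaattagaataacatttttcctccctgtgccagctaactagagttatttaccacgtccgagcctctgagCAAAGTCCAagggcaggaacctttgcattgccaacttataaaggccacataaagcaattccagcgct

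The inverted repeat was found in Abcb11 as GGCCATTGACC at positions -62 to -52 from the start, and in Slco1b2 as GGACAGTGACC at -87 to -77. It occurred in 2 of the 8 member windows, but not in that of Nr0b2, and in 0.575% of 32851 RefSeq windows of the same length. Nr0b2 held TCAAGG at -68 to -63 and at -35 to -30, a motif present in 12.5% of windows, and CACGTG at -195 to -190, present in 6.02%. Cyp8b1 held CAAAGTCCA at -67 to -59, present in 0.384% of windows. TTATGTAA was in none of the 8 member windows and in 0.819% of all windows. The windows of Cyp27a1, Nr1h4 and Slc10a1 held no match to any of the motifs and are not printed. A match describes letters and not binding, and these windows are short.

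Cyp7a1 was the one member at least 2-fold lower in large GS_KO barcodes, and Nr0b2 and Abcb11 were the ones at least 2-fold higher. Among the 10192 genes with at least 20 UMIs in the large class, 12.8% were 2-fold or more higher and 5.6% 2-fold or more lower, so counts of 2 and 1 among 10 members are near the background. The members' median log2 ratio of GS_KO over control was 0.02, beside 0.04 over all genes tested. In the small class 2 members were higher (Nr0b2 and Cyp8b1) and 1 lower, against 13.2% and 4.25% of 13688 genes. In the middle class the counts were again 2 (Nr0b2 and Abcb11) and 1, against 15.6% and 3.7% of 12349 genes. The set as a whole therefore did not stand apart, and its members lay at both ends of the ratios: only 0.55% of genes in the large class had a lower ratio than Cyp7a1, and only 2.19% and 2.88% had a higher one than Nr0b2 and Abcb11.

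**Figure D1:**
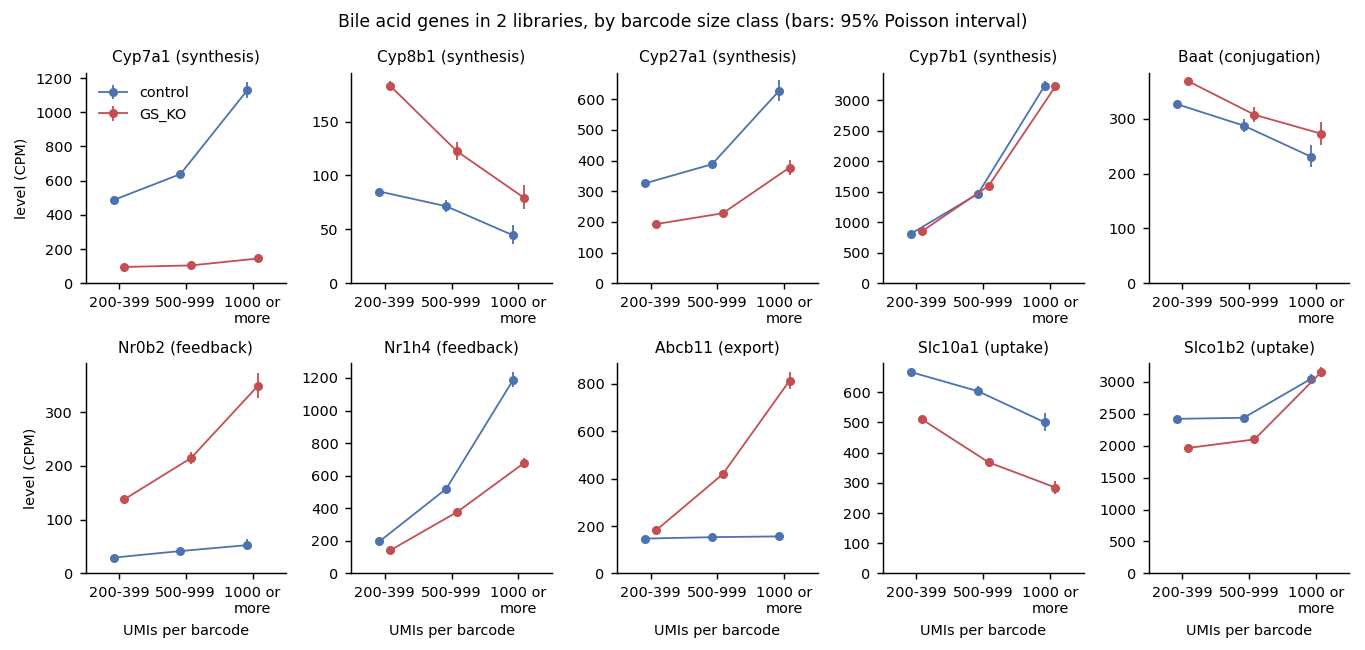
Level of each gene in CPM (vertical axis, from 0) in 3 barcode size classes (horizontal axis) of the control and GS_KO libraries, with 95% Poisson intervals. Cyp7a1 is lower and Nr0b2 higher in every GS_KO class, while Abcb11 is flat over the control classes and reaches 813 CPM in large GS_KO barcodes.

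Among the synthesis enzymes, Cyp7a1, the rate-limiting enzyme of the classic route (chr4:6265612-6275633, minus strand, mm10), had the lowest ratio. It stood at 487, 638 and 1129 CPM in the small, middle and large control classes and at 95.4, 104 and 145 CPM in the GS_KO classes. No GS_KO class reached the lowest control class. The difference was 5.10-fold (4.93 to 5.28) in small, 6.11-fold (5.65 to 6.62) in middle and 7.78-fold (6.97 to 8.73) in large barcodes, so it was wider in larger barcodes. The increase from small to large barcodes was 2.32-fold in control and 1.52-fold in GS_KO barcodes.

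Cyp8b1, the sterol hydroxylase needed for cholic acid and thus for the make-up of the bile acid pool, lay on the opposite side (chr9:121914356-121916305, minus strand). It stood at 85.1, 71.4 and 44.4 CPM in the control classes and at 183, 122 and 79.4 CPM in the GS_KO classes. The difference was 2.15-fold higher (2.07 to 2.24) in small, 1.71-fold (1.54 to 1.91) in middle and 1.78-fold (1.39 to 2.30) in large barcodes. Both Cyp7a1 and Cyp8b1 are known targets of repression by SHP, and their ratios had opposite signs in all 3 classes. The part of SHP in either difference was not tested.

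The enzymes of the alternative route differed less. Cyp27a1, the mitochondrial sterol hydroxylase (chr1:74713574-74737892, plus strand), stood at 326, 388 and 627 CPM in control and 193, 228 and 377 CPM in the GS_KO classes. Its log2 ratio was nearly constant at -0.76, -0.77 and -0.73, or 1.69-fold, 1.70-fold and 1.66-fold lower. Cyp7b1, the oxysterol hydroxylase of that route (chr3:18071950-18243338, minus strand), was at 814, 1466 and 3242 CPM in control and 850, 1599 and 3230 CPM in the GS_KO library. Its ratio in large barcodes was 0.996-fold (0.965 to 1.03). Baat, which joins bile acids to taurine (chr4:49489422-49506557, minus strand), was slightly higher in each GS_KO class, at 327, 288 and 231 against 370, 308 and 273 CPM. The excess was 1.13-fold (1.10 to 1.16) in small and 1.18-fold (1.05 to 1.33) in large barcodes.

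Among the feedback genes, Nr0b2, an orphan receptor without a DNA-binding domain (chr4:133553376-133556536, plus strand), was higher throughout. It stood at 29.5, 41.6 and 52.7 CPM in control and 138, 215 and 349 CPM in the GS_KO classes. The lowest GS_KO class lay above the highest control class. The difference was 4.68-fold (4.39 to 4.99), 5.15-fold (4.57 to 5.83) and 6.60-fold (5.45 to 8.12). Nr1h4, the bile acid receptor upstream of Nr0b2 (chr10:89454234-89533585, minus strand), was lower: it stood at 196, 520 and 1188 CPM in control and 142, 377 and 677 CPM in the GS_KO classes. That is 1.39-fold (1.34 to 1.44), 1.38-fold (1.31 to 1.45) and 1.75-fold (1.65 to 1.87) lower. The receptor's RNA and that of its target Nr0b2 thus differed in opposite directions.

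Abcb11, the bile salt export pump of the canalicular membrane (chr2:69238282-69342616, minus strand), gave the ratio that depended most on barcode size. In the control it was at 147, 153 and 156 CPM in small, middle and large barcodes, and in the GS_KO library at 181, 419 and 813 CPM. The libraries therefore differed by 1.23-fold (1.19 to 1.28) in small, 2.74-fold (2.56 to 2.93) in middle and 5.20-fold (4.64 to 5.86) in large barcodes. The increase from small to large barcodes was 4.49-fold in the GS_KO library and 1.06-fold in the control, a difference of 2.08 on the log2 scale. With every barcode summed, most of them small, the log2 ratio was 0.69, under 2-fold. No other member had such a difference from small to large barcodes above 0.61 in size (Cyp7a1, -0.61). An annotated antisense transcript, Gm13613, overlaps 24185 bases of Abcb11. It held 1, 1 and 1 control UMIs and 5, 20 and 26 GS_KO UMIs over the classes. How strand was used in counting was not given in the sources used here, so reads of the pair may not be fully separated.

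**Figure D2:**
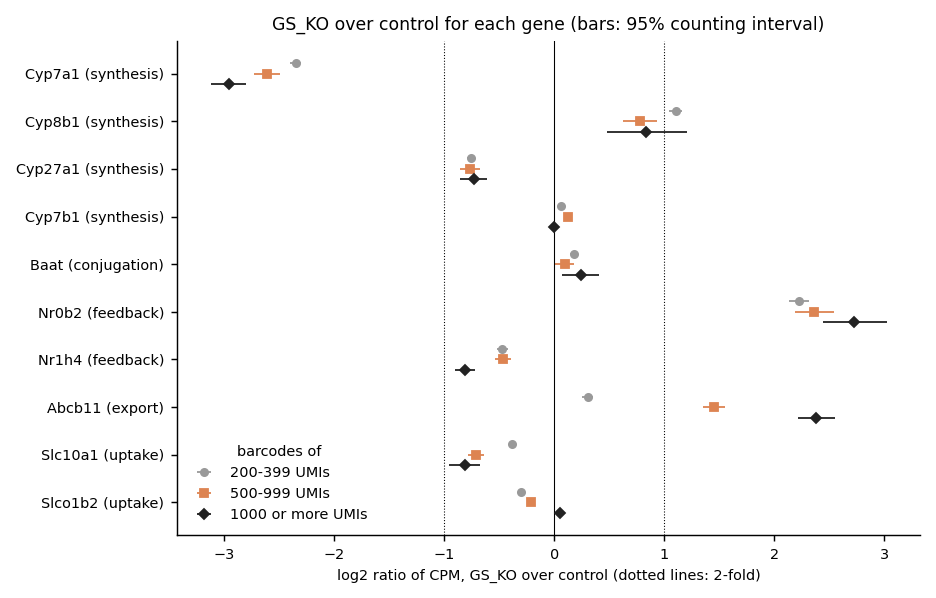
Log2 ratio of CPM, GS_KO over control (horizontal axis), for each gene in 3 barcode size classes, with 95% counting intervals and dotted lines at 2-fold. Abcb11 moves from 0.30 in small to 2.38 in large barcodes, while Cyp27a1 stays between -0.77 and -0.73.

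Uptake carriers were lower or near equal. Slc10a1, the sodium-dependent carrier of conjugated bile acids (chr12:80953183-80968705, minus strand), stood at 667, 604 and 500.4 CPM in control and 511, 368 and 284 CPM in the GS_KO classes. The difference was 1.31-fold (1.28 to 1.33), 1.64-fold (1.56 to 1.72) and 1.76-fold (1.60 to 1.94) lower. Slco1b2, a sodium-independent organic anion carrier of the basolateral membrane (chr6:141629518-141686646, plus strand), was at 2419, 2435 and 3042 CPM against 1963, 2097 and 3151 CPM. It was 1.23-fold lower (1.22 to 1.24) in small and 1.04-fold higher (1.00 to 1.07) in large barcodes, so its direction differed between classes. In large barcodes, Abcb11 RNA was therefore higher beside lower Slc10a1 RNA and a near equal level of Slco1b2 RNA.

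A finer division of barcode size into 9 bins shows where these patterns begin. Control Abcb11 lay between 135 and 167 CPM in all 9 bins. In the GS_KO library it was 177 CPM at 200 to under 300 UMIs, 220 CPM from 400 to under 500, 580 CPM from 800 to under 1000 and 934 CPM at 1500 or more. Control Cyp7a1 was 488 CPM in the first bin and 482 CPM from 400 to under 500 UMIs, then 858 CPM from 800 to under 1000 and 1203 CPM at 1500 or more. GS_KO Cyp7a1 stayed between 86.0 and 178 CPM. Malat1 was higher in larger barcodes of both libraries, except between the first bins of the control (1797 and 1685 CPM). Control values reached 22678 CPM, and GS_KO values ran from 1181 to 40871 CPM. Albumin RNA (Alb), mostly cytoplasmic, stood at 41285 and 42521 CPM in the smallest bin and at 18413 and 11547 CPM in the largest. The part of RNA content in the ratios of single members was not tested.

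**Figure D3:**
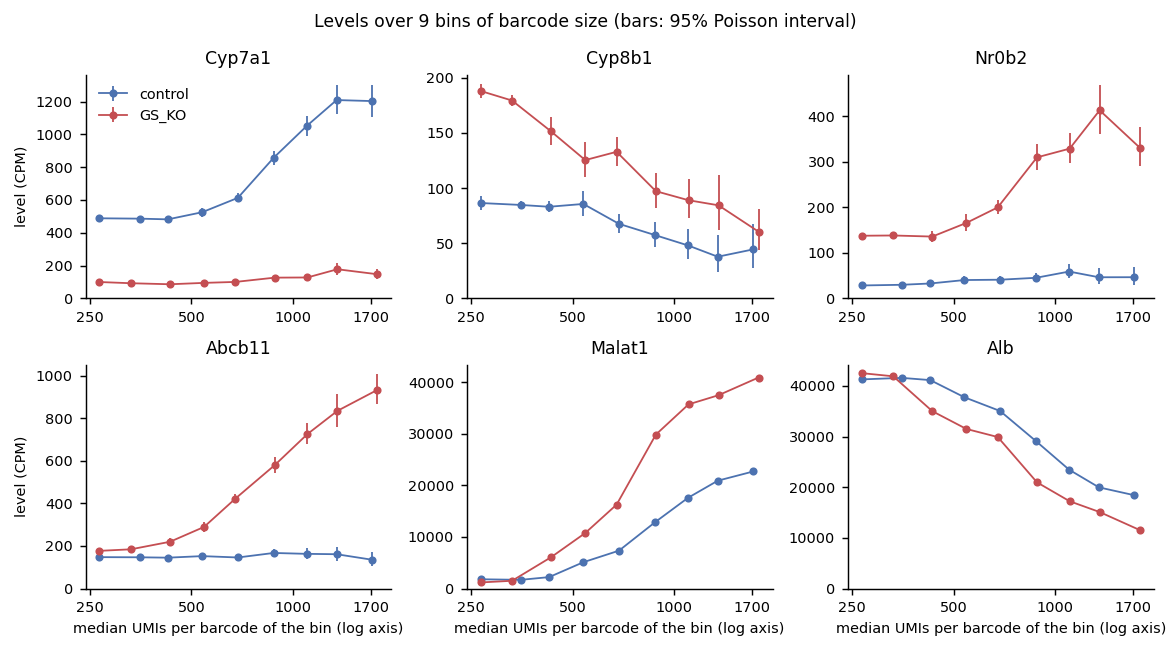
Level in CPM (vertical axis, from 0) against the median UMIs per barcode of 9 size bins (log horizontal axis) for 4 members, Malat1 and Alb, with 95% Poisson intervals. The libraries are close for Abcb11 in the smallest bin, at 148 and 177 CPM, and far apart in the largest, at 135 and 934 CPM.

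Gene structure went partly with the step from small to large barcodes. Cyp8b1 is a single exon of 1950 bases with no intron, and it was 1.90-fold lower in large than in small control barcodes and 2.30-fold lower in GS_KO ones. Nr1h4 and Cyp7b1 are 97.1% and 98.7% intronic over 79.4 and 171 kb. They were 6.05-fold and 3.99-fold higher in large control barcodes, and 4.78-fold and 3.80-fold higher in large GS_KO barcodes. Slc10a1 and Baat went against this, being 85.8% and 88.7% intronic but lower in large barcodes of both libraries, by 1.33-fold and 1.41-fold in the control. Cyp7a1 and Nr0b2 are only 58.4% and 64.2% intronic, yet they were 2.32-fold and 1.80-fold higher in large control barcodes. In the GS_KO library they were 1.52-fold and 2.53-fold higher. Slco1b2, at 91.4% intronic, was 1.26-fold higher in large control barcodes. Over the 10 members, which share libraries and depth, Spearman's rho of this step with the intronic share was 0.53 for control and 0.77 for GS_KO, given as a description. Abcb11 is 95.1% intronic over 104 kb, yet it was near equal in small and large control barcodes. Whether intronic reads were counted was not given in the sources used here.

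**Figure D4:**
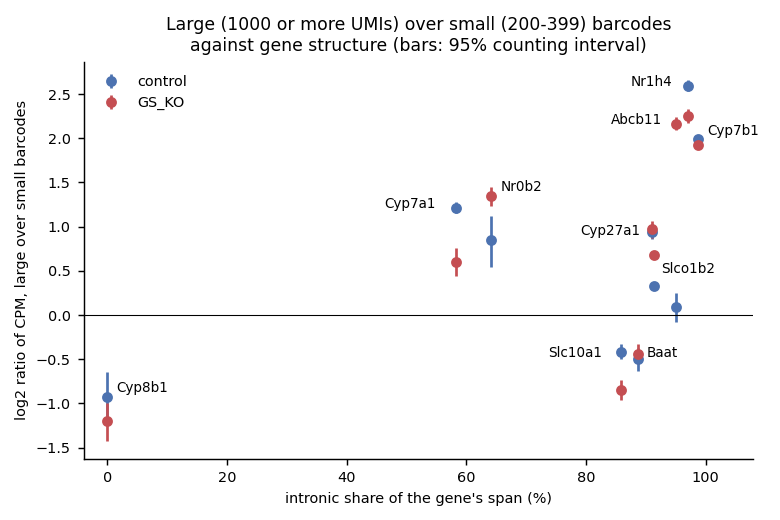
Log2 ratio of CPM between large and small barcodes (vertical axis) against the intronic share of the gene's annotated span (horizontal axis, percent) for the 10 genes in each library, with 95% counting intervals. Intronless Cyp8b1 is the lowest point in both libraries, and Abcb11 is at 0.09 for control but 2.17 for GS_KO.

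Large barcodes were next ranked within each library on their pericentral share, the part of zone-marker UMIs that came from 12 pericentral rather than 12 periportal genes, and cut into 3 equal groups. Cyp7a1 is known to be higher toward the central vein. In the control, the pericentral group was above the periportal group by 1.31-fold for Cyp7a1 (966 and 1270 CPM), 1.43-fold for Cyp27a1 and 1.20-fold for Cyp7b1. In the GS_KO library the matching steps were 2.31-fold for Cyp7a1 (88.2 and 205 CPM), 2.44-fold for Cyp27a1 and 2.49-fold for Cyp7b1 (1859 and 4629 CPM). Cyp8b1, the other synthesis enzyme, had no step resolved beyond counting error, with log2 steps of 0.33 (-0.41 to 1.08) for control and -0.23 (-0.74 to 0.27) for GS_KO. Slco1b2 had steps of 1.33-fold and 1.98-fold. These groups are not matched between libraries: the median pericentral share ran from 0.43 to 0.75 in the control and from 0.21 to 0.75 in the GS_KO library. The pericentral markers themselves were lower in GS_KO. They summed to 7013 and 14569 CPM in the periportal and pericentral control groups, and to 1993 and 9363 CPM in the GS_KO groups.

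Nr1h4 had no zonal step beyond counting error in either library by this ranking. With Cyp2e1 and Cyp2f2 left out of the marker lists, its control log2 step was 0.15 (0.01 to 0.29). By the full lists, Nr1h4 was at 1189, 1149 and 1226 CPM from the periportal to the pericentral control group. In the GS_KO groups it was at 674, 691 and 666 CPM. Abcb11 was at 174, 153 and 141 CPM and at 787, 816 and 835 CPM, log2 steps of -0.30 (-0.69 to 0.09) and 0.09 (-0.07 to 0.24). Nr0b2 was at 55.2, 53.4 and 49.3 CPM and at 321, 324 and 399.3 CPM, and its GS_KO step of 1.24-fold had a log2 interval above 0 (0.07 to 0.55). GS_KO barcodes of every zonal group therefore held less Cyp7a1 and more Nr0b2 and Abcb11 than control barcodes of the same group. The Cyp7a1 log2 ratio between libraries was -3.44 (-3.83 to -3.10) in the periportal and -2.63 (-2.87 to -2.40) in the pericentral group. Cyp7b1, close to equal over all large barcodes, was 2913 and 1859 CPM in the periportal and 3507 and 4629 CPM in the pericentral group.

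**Figure D5:**
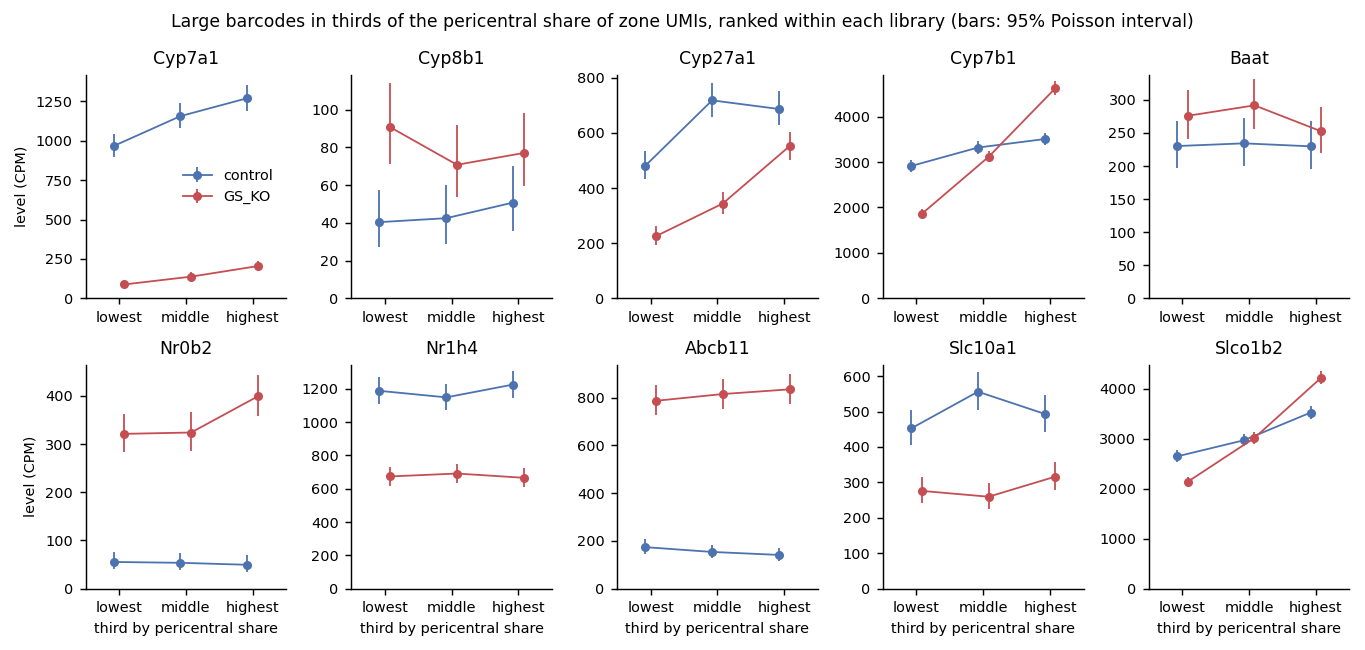
Level in CPM (vertical axis, from 0) of each gene in large barcodes cut into 3 equal groups by pericentral share within each library (horizontal axis), with 95% Poisson intervals. Cyp7b1 spans 2913 to 3507 CPM in control and 1859 to 4629 CPM in the GS_KO library, while Nr1h4 spans 1149 to 1226 CPM and 666 to 691 CPM.

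Content of nuclear RNA was examined in the same way. When large barcodes were cut into 3 equal groups by Malat1 share, Abcb11 in the control was 142, 160 and 165 CPM and in the GS_KO library 739, 798 and 898 CPM. The log2 ratio between libraries was 2.38, 2.31 and 2.44 in these groups. Nr0b2 gave 2.21, 2.73 and 3.06, and Cyp7a1 -2.61, -3.05 and -3.11. The groups were ranked within libraries, and Malat1 itself ran from 9256 to 29591 CPM in control and from 21464 to 54078 CPM in the GS_KO library.

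Single acute phase and clock genes differed between the libraries too. Saa1, an acute phase apolipoprotein, was at 34.8 CPM in large control barcodes and 1538 CPM in large GS_KO ones. Arntl, a core clock activator, was at 1.83 and 116 CPM (4 and 284 UMIs). Dbp, a clock output factor known to act on Cyp7a1, was at 73.3 and 1.64 CPM (160 and 4 UMIs). In small barcodes, with more UMIs, Arntl was at 0.709 and 24.7 CPM (27 and 1065 UMIs). Dbp was at 150 and 2.07 CPM there (5717 and 89 UMIs). The clock repressor gene Nr1d1 was at 43.4 and 23.1 CPM in small barcodes but at 32.1 and 61.8 CPM in large ones. Within the GS_KO library, the richest of 3 equal groups ranked on 12 acute phase genes held 115 CPM of Cyp7a1 against 154 CPM in the poorest, and 679 against 934 CPM of Abcb11. The log2 steps were -0.42 (-0.83 to -0.02) and -0.46 (-0.62 to -0.30). Cyp7b1, Nr1h4 and Slco1b2 were also lower. Cyp8b1 was higher by 0.58 (0.08 to 1.10) and Slc10a1 by 0.36 (0.10 to 0.63). Nr0b2, Cyp27a1 and Baat had no step beyond counting error (Nr0b2, -0.07, -0.32 to 0.18). In the control the same groups held 886 and 1217 CPM of Cyp7a1, and the Abcb11 step was -0.26 (-0.65 to 0.13). The barcodes rich in acute phase RNA also held less Malat1, at 33346 against 38396 CPM in the GS_KO and 15062 against 22297 CPM in the control library. The parts of inflammation, time of day and RNA content in the differences between libraries were not tested.

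Signal from other cell types differed between the libraries. The 10 Kupffer markers were all higher in GS_KO large barcodes, with a sum of 88.0 CPM in control and 565 CPM in the GS_KO library, and none was at 0. The 8 endothelial markers summed to 289 and 275 CPM, and the 8 stellate markers to 210 and 196 CPM. All 7 cholangiocyte markers were at 0 in large control barcodes and 5 of 7 in GS_KO ones, where the sum was 15.6 CPM. The 6 lymphocyte markers summed to 1.83 and 4.50 CPM and the 4 neutrophil markers to 0.458 and 17.6 CPM. Without barcodes that held at least 2 UMIs of one other cell type (196 control and 341 GS_KO), the log2 ratio was -2.99 for Cyp7a1, 2.84 for Nr0b2 and 2.39 for Abcb11.

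Single barcodes were compared after thinning each large barcode to 1000 UMIs. A Cyp7a1 UMI was then found in 59.8% (57.4 to 62.1, exact binomial interval) of control and 11.8% (10.3 to 13.3) of GS_KO barcodes. The shares were 5.40% and 28.2% for Nr0b2 and 13.8% and 52.3% for Abcb11. Before thinning they were 66.7% and 15.3% for Cyp7a1, 6.40% and 35.0% for Nr0b2 and 16.8% and 61.1% for Abcb11. Barcodes with at least 3 Kupffer UMIs, which should lack these genes, gave 37.5% (18.8 to 59.4) of 24 control and 11.9% (6.93 to 18.5) of 135 GS_KO barcodes for Cyp7a1, and 12.5% and 50.4% for Abcb11. Median depths were 1222.5 and 1266 UMIs in these, against 1190 and 1209 UMIs in all large barcodes. For Nr0b2 the barcodes with at least 3 Kupffer UMIs gave 0% and 17.0%. Their Cyp7b1 was at 3118 CPM in control and 3145 CPM in GS_KO. Large barcodes with no Kupffer UMI held 3254 and 3336 CPM, so those with Kupffer UMIs did not hold Kupffer RNA alone. Cyp7a1 and Abcb11 UMIs were thus also present in barcodes that carry Kupffer RNA, and the shares are not read as shares of expressing cells.

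In the wider pathway, 46 further genes of synthesis, control and transport were examined, of which 39 had at least 20 UMIs in large barcodes. Their median log2 ratio was 0.05, beside 0.04 over all genes, with 4 at least 2-fold higher and 4 at least 2-fold lower, against 12.8% and 5.6% of all genes. Lower were Cyp39a1, an oxysterol hydroxylase (67.8 and 3.68 CPM, 17.5-fold, 9.44 to 41.1), and Cyp2c70, which makes muricholic acids in mice (1735 and 735 CPM, 2.36-fold, 2.23 to 2.50). The others lower were Cyp46a1, a cholesterol hydroxylase (71 and 13 UMIs), and the basolateral exporter Abcc4 (18 and 3 UMIs), which have too few UMIs for the naming rule and are named here to complete the count. Higher were Hsd3b7, which follows Cyp7a1 in the classic route (122 and 295 CPM, 2.42-fold), the steroid dehydrogenase Akr1c6 (1249 and 2641 CPM, 2.11-fold), the basolateral exporter Abcc3 (31.2 and 88.0 CPM, 2.81-fold) and the canalicular transporter Abcg2 (58.2 and 139 CPM, 2.38-fold). None of the 10 measured regulators passed 2-fold in the large class. The closest were Rxra, the partner of FXR (170 and 86.8 CPM), and the xenobiotic receptor gene Nr1i2 (187 and 97.4 CPM), both lower. Of the factors that act on Cyp7a1, Hnf4a was 309 and 184 CPM and Nr5a2 246 and 371 CPM. Fgfr4 and Klb, which together form the hepatocyte receptor for intestinal FGF15, were 50.4 and 91.7 CPM and 91.2 and 56.9 CPM. These 6 are named for their roles after their values were seen.

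Small barcodes gave another picture for some of these. Cyp39a1 was 11.9 and 2.74 CPM and Abcg2 66.1 and 138 CPM there, in the same direction as in large barcodes. Cyp2c70 was 1026 and 963 CPM, and Akr1c6 2008 and 2081 CPM, so these were near equal in small barcodes. Abcc3 was 32.9 and 37.7 CPM, and Nr5a2 was 58.2 and 53.1 CPM, lower in GS_KO where it was higher in large barcodes. Slc51b, Klb and Acnat1 fall outside the naming rule and complete the counts that follow. In the small class 2 of 41 measured genes were 2-fold higher (Abcg2 and the basolateral exporter subunit Slc51b, with 25 and 172 UMIs) and 3 lower (Cyp39a1, Cyp46a1 and Klb), against 13.2% and 4.25% of all genes, with a median of -0.22 beside -0.01 over all genes. In the middle class 4 were higher (Abcc3, Abcg2, Slc51b and the acyltransferase Acnat1) and 2 lower (Cyp39a1 and Cyp46a1), against 15.6% and 3.7% of all genes, with a median of -0.02 beside 0.15.

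Likeness of pattern was measured as the root mean square difference of centred log2(CPM + 5) over the 6 sums, among 5689 genes. The genes most like Cyp7a1 were the clock gene Per1 (0.16), Smad9 (0.16), Fmo2 (0.20), Cyp2a22 (0.21) and Ankrd55 (0.27). Those most like Nr0b2 were Osgin1 (0.17), Rims4 (0.23), Pim1 (0.26), Asap2 (0.28) and St6gal1 (0.28). The 5 CPM added shrinks ratios of low values, so likeness here does not mean a like fold difference. Rims4 was at 0.131, 0.379 and 0.458 CPM in control and 11.0, 24.0 and 45.8 CPM in the GS_KO classes. In small barcodes Per1 was at 26.7 and 1.49 CPM, and Fmo2 at 15.0 and 0.488 CPM. Abcb11 was most like Zfand5 (0.067), the coagulation factor gene F11 (0.13), Cyp3a25 (0.14), Slc17a4 (0.16) and Shfl (0.16). Zfand5 stood at 72.6, 78.0 and 78.8 CPM in control and 105, 220 and 437 CPM in the GS_KO classes, and Cyp3a25 at 902, 936 and 1186 CPM and 1068, 2801 and 5843 CPM. A flat control and a steep GS_KO series was therefore not confined to Abcb11.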

How the data were processed

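Each of 2 libraries was deposited as a matrix of UMI counts for 32285 genes, which the authors obtained from Cell Ranger (8.0.0 per the file headers) and mm10 (submitters' processing notes). Values are raw whole numbers. How barcodes were selected, and whether introns or strand were used in counting, was not given in the sources used here. Here, raw UMIs were summed over barcodes in 3 size classes from 200, 500 and 1000 UMIs and scaled to CPM. Ratios had 0.5 counts added to each sum. Intervals are exact Poisson (levels), conditional binomial (ratios) and Clopper-Pearson (shares) at 95%, and cover counting error only. Genes reaching 20 UMIs over the 2 libraries formed the background, and called means past 2-fold. No doublet caller was used. Gene structures came from GENCODE M21 and promoters from RefSeq (GRCm38.p6). Ratio and interval code was tested on simulated data. Named genes were all members, list genes past 2-fold with at least 100 UMIs in large barcodes, and the 5 genes most like Cyp7a1, Nr0b2 and Abcb11. Members and lists were chosen with earlier results of these data known. Software: scipy 1.17.1, numpy 2.4.6 and pandas 2.3.3 under Python 3.11.15, with figures by matplotlib 3.10.9.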

Additional observations from a re-analysis of the deposited data

Results flagged for a closer look

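Barcodes under 200 UMIs (7544 control and 11607 GS_KO) enter none of the size classes, and a difference above the control was present in them. Nr0b2 gave 30 control UMIs (24.2 CPM) and 253 GS_KO UMIs (129 CPM) there, a log2 ratio of 2.40 (1.87 to 3.02). Only higher members could be flagged. Cyp7a1 was lower there at -2.50 (-2.75 to -2.25), and Cyp8b1 higher at 1.06 (0.76 to 1.37). The small class gave 2.23 for Nr0b2, -2.35 for Cyp7a1 and 1.11 for Cyp8b1, so Nr0b2 was not particular in this.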

How the results depend on the processing

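In large barcodes the direction was kept under all 10 alternatives for 7 of the members (Cyp7a1, Cyp8b1, Cyp27a1, Nr0b2, Nr1h4, Abcb11 and Slc10a1). Cyp7b1 lay between -0.08 and 0.06, with the sign changing under median of ratios scaling among others. Baat was -0.07 in the gap class (400 to under 500 UMIs), Nr1h4 was -0.07 there against -0.81 in large barcodes, and Slco1b2 was -0.46 there and -0.27 with every barcode. Cyp7a1 lay between -3.10 and -2.43 on the log2 scale and Nr0b2 between 1.84 and 2.84, past 2-fold under every alternative. With every barcode included, the log2 ratio was -2.43 for Cyp7a1, 2.26 for Nr0b2 and 0.69 for Abcb11. In the gap class, an alternative chosen after seeing the data, it was -2.49, 2.05 and 0.60, which left 1 member 2-fold higher. Without barcodes of 3 or more Kupffer UMIs, also added after seeing the data, it was -2.96, 2.76 and 2.39. Abcb11 was 2.78 at a minimum of 1500 UMIs and 2.64 with free RNA taken off, and Nr0b2 was 1.84 at 2000 UMIs. Taking free RNA off (27.5% of control and 22.8% of GS_KO UMIs) put 2 members, Slc10a1 added at -1.01, and 7 other bile acid genes past 2-fold lower. Its profile was that of the small class of the same library, at the library's median UMIs per barcode for each large barcode. That setting treats small barcodes as free RNA, which was not tested. Other bile acid genes 2-fold higher numbered 2 with every barcode, 1 in small barcodes with 5 CPM added, and 2 in the middle class with either 5 CPM added or median of ratios scaling.

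Counts over all genes followed the limits on low values. With a minimum of 1 UMI they were 4772 higher and 1816 lower in small, 4951 and 1823 in middle and 4283 and 2102 in large barcodes. At 100 UMIs they were 1039 higher in small, 971 and 275 in middle and 569 and 322 in large barcodes. With 5 CPM added they were 367 and 179, 864 and 230, and 824 and 350. In place of the large class, 823 genes were higher at 1500 UMIs, 488 higher and 328 lower at 2000 UMIs, 2391 higher with every barcode and 2734 higher in the gap class. The causes of these shifts were not tested. No paired analysis was possible because each group has 1 sample, which also allows no fit without a replicate. Depth limits Cyp8b1 and Nr0b2 most, with 97 and 115 control UMIs in large barcodes.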
